A study of Mus musculus with 12 samples.

Results

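The genes of MHC class II antigen presentation were followed across the arrays of a mouse study of lymphoma and leukaemia driven by the fusion kinase ZMYM2-FGFR1. The set was named gene by gene: H2-Aa, H2-Ab1, H2-Ea, H2-Eb1, Cd74, Ciita, H2-DMa, H2-DMb1, H2-Oa and H2-Ob, which is 10 genes, set among 18193 with a probe set of their own. Of the probe sets of a gene (groups of probes for its transcripts), the brightest on average over all arrays stands for it, and its other probe sets are given beside it. In all, 9 of the 10 genes were measured. The 2 probe sets that name H2-DMb1 also name its neighbour H2-DMb2, so H2-DMb1 was not analysed here on its own.

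Unsorted T lymphomas of ZMYM2-FGFR1 mice (n = 3) came from the third serial transplant, and more than 90% of their cells carried GFP, Thy1, CD4 and CD8. A further T lymphoma was sorted for GFP+ Thy1+ CD4+CD8+ cells (n = 1), so that any effect of the sort on expression could be seen, and ZNF112 is described only as a cell line (n = 1). Their normal counterpart was sorted Thy1+ CD4+CD8+ double-positive (DP) thymocytes of normal BALB/c mice (n = 3, each a pool of thymuses from 3 mice). Leukaemic stem cells (LSC, n = 2) were GFP+ and Lin-Sca-1+c-kit+, from marrow or spleen of 2 to 3 leukaemic mice, and haematopoietic stem cells (HSC, n = 2) were Lin-Sca-1+c-kit+, from marrow of 5 normal female BALB/c mice, both sorted. Ages, the strain of the diseased mice and the number of mice behind a lymphoma array are not given in the sources used here. An unsorted tumour can hold cells of the transplanted host. The lymphoma and LSC labels give no treatment other than the fusion gene.

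MHC class II molecules show peptides from the endosomal pathway to CD4+ T cells, and they are made mainly by dendritic cells, macrophages, B cells and thymic epithelium. The classical heterodimers are I-A, from H2-Aa and H2-Ab1, and I-E, from H2-Ea and H2-Eb1. The invariant chain Cd74 holds the groove until lysosomal proteases cut it, H2-DM exchanges its last fragment for a peptide, and H2-O restrains H2-DM. Ciita is the co-activator that switches these genes on, working through RFX, CREB and NF-Y at an X box and a Y box in their promoters. In mice, resting T cells and thymocytes make little class II.

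Promoter sequences are shown because most of these genes share that promoter element and several of them moved together. They come from RefSeq, build GRCm38.p6, whose table held 6 of the 10 genes, and each line gives the 150 bases before the transcript start, read 5′ to 3′. H2-Aa and H2-Eb1 are classical chains that were high in unsorted lymphoma, H2-Ob and H2-Oa are the H2-O chains, and H2-DMa was called higher in the sorted tumour than in DP thymocytes. Capitals mark GNAAC followed, after 20 to 30 bases, by TGATTGG, the core letters of the X and Y boxes.
H2-Aa, chr17:34287824-34287973, minus strand: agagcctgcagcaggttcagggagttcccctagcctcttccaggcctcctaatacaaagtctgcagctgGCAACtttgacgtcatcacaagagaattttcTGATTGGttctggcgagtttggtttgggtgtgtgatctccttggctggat
H2-Eb1, chr17:34305717-34305866, plus strand: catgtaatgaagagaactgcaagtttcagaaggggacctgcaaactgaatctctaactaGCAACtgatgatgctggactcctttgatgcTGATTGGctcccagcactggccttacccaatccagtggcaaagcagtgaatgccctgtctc
H2-Ob, chr17:34238755-34238904, plus strand: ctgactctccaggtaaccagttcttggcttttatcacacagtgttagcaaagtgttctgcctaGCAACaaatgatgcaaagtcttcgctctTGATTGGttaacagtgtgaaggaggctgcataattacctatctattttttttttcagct
H2-Oa, chr17:34092229-34092378, plus strand: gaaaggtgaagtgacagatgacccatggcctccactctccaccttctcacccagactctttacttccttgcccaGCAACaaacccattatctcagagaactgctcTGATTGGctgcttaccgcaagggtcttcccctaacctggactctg
H2-DMa, chr17:34122682-34122831, plus strand: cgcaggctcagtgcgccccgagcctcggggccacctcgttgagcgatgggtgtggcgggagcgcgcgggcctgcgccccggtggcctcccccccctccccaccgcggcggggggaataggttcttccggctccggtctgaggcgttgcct
The pair of motifs was found in 5 of the 6 genes with a window (H2-DMb1 is the fifth), with gaps of 23 to 26 bases in the 4 printed here that hold it. It was present in 89 of 32851 promoters (0.271%) when 250 bases before the start were searched on both strands, and TGATTGG alone was in 7.23%. Neither of the 2 windows listed for H2-DMa held the pair, which says only that these letters were not in this window. The motif was written after these sequences had been read, so its presence in them is a description.

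The arrays of the T cell side (lymphomas, ZNF112 and DP thymocytes) had median intensities of 99.5 to 109, against 44.3 to 46.1 on the stem cell side (LSC and HSC), so levels are set side by side only within a side. The lymphoma, cell line and thymocyte arrays carried T cell genes, with Thy1 at 13.00 to 13.30 in the lymphomas, 13.41 in ZNF112 and 14.14 to 14.27 in DP thymocytes (log2 intensity). On the stem cell side the replicates stood apart: the summed intensity of 11 macrophage markers was 7043 and 1801 in the LSC arrays, against 22755 and 3197 in the HSC arrays. That of 8 T cell markers was 3213 and 21356 in LSC, against 685 and 350 in HSC. The actin 3′ to 5′ signal ratio rises when the 5′ ends of transcripts are under-represented in the sample. The ratio was 2.44 to 3.69 in the lymphomas, 2.60 in ZNF112 and 2.18 to 2.23 in DP thymocytes. It was 9.82 to 13.6 in LSC against 3.91 to 5.79 in HSC, and its part in the contrast of these groups was not tested.

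The first comparison asked how unsorted T lymphoma differs from normal DP thymocytes. All 4 classical chains were 8.14-fold to 48.7-fold higher in unsorted lymphoma, Cd74 was 13.2-fold higher and H2-DMa 2.42-fold higher, while Ciita, H2-Oa and H2-Ob did not pass the test. Thus 6 of the 9 measured members rose, against 874 of the 12786 genes tested (6.84%), by limma's moderated test on log2 intensity with Benjamini-Hochberg adjustment over all genes tested. Genes were tested when they lay above log2 6.33 on at least 2 arrays, which all 9 measured members did. The median difference was 3.03 over the 9 members and -0.03 over all genes tested. In each of the 9, every lymphoma array lay above every thymocyte array, an ordering that 24% of all genes tested also had. In bulk samples such as these, fewer cells of a type and less RNA per cell cannot be told apart. When the sorted tumour was pooled with the unsorted ones, H2-DMa was the only call left.

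**Figure D1:**
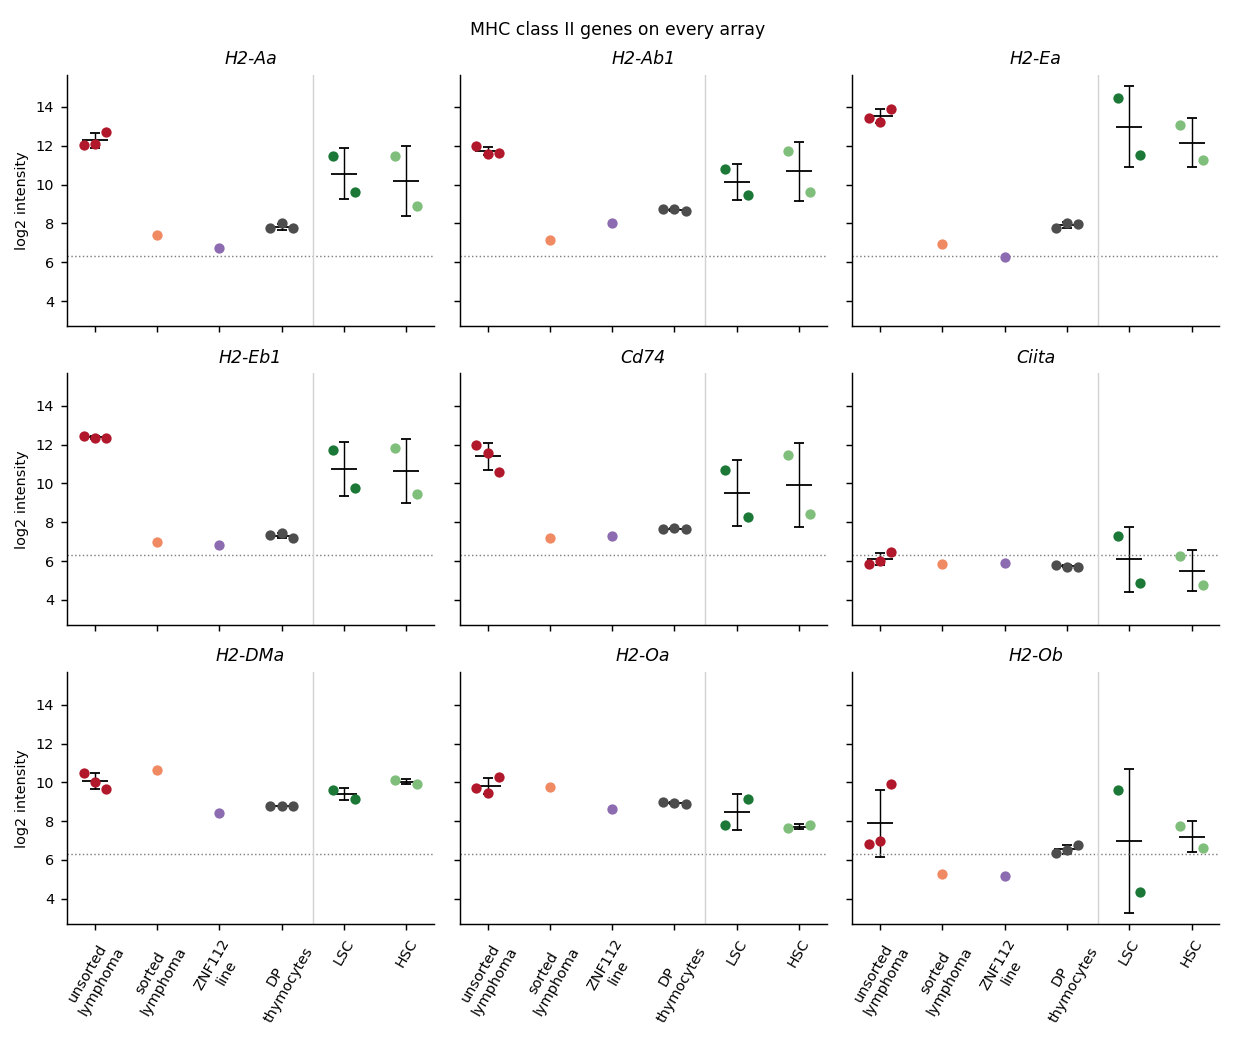
Log2 intensity of each measured class II gene on every array, with groups along the horizontal axis and 1 point per array. H2-Aa, H2-Ab1, H2-Ea, H2-Eb1 and Cd74 were high on the 3 unsorted lymphoma arrays and low on the sorted lymphoma, ZNF112 and thymocyte arrays. The LSC and HSC arrays had lower median intensities than these.

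H2-Aa, the alpha chain of I-A, had log2 intensities of 12.03, 12.08 and 12.72 in unsorted lymphoma, against 7.75, 8.01 and 7.74 in DP thymocytes. The difference was 4.44 ± 0.67 (SE, n = 3 each; limma, Benjamini-Hochberg adjusted p = 0.00437; 95% interval 2.91 to 5.97). Its named probe set, 1435290_x_at, is of a kind whose probes may bind related transcripts. Fitted as rows of their own, 2 other H2-Aa probe sets had differences of 5.00 and 4.31, and the last lay between 4.63 and 4.90 in unsorted lymphoma and between 4.66 and 4.73 in DP thymocytes and did not pass the filter on low values.

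H2-Ab1, the beta chain of I-A, had 11.98, 11.58 and 11.61 in unsorted lymphoma, against 8.73, 8.74 and 8.64 in DP thymocytes. It had the smallest difference of the 4 classical chains on the log2 scale, 3.03 ± 0.53 (limma, Benjamini-Hochberg adjusted p = 0.0088; 95% interval 1.81 to 4.24). Its other 2 probe sets had differences of 3.02 and 2.36.

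H2-Ea, the alpha chain of I-E, had 13.43, 13.23 and 13.91 in unsorted lymphoma, against 7.74, 8.03 and 7.97 in DP thymocytes. This was the largest difference among the members, 5.61 ± 0.72 (limma, Benjamini-Hochberg adjusted p = 0.00219; 95% interval 3.96 to 7.25). The gene is a transcribed pseudogene in the RefSeq table used, whose strain lacks I-E, whereas BALB/c mice make it. The size depended on the probe set: a second one had 11.12, 11.97 and 11.77 in unsorted lymphoma and 8.38, 8.31 and 8.48 in DP thymocytes, a difference of 3.23. Another lay under the filter on every array.

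H2-Eb1, the beta chain of I-E, was the most even across tumours, with 12.44, 12.33 and 12.35 in unsorted lymphoma, against 7.34, 7.44 and 7.17 in DP thymocytes. The difference was 5.06 ± 0.63 (limma, Benjamini-Hochberg adjusted p = 0.00195; 95% interval 3.61 to 6.50). The array has no other H2-Eb1 probe set, and its label (1417025_at) marks probes specific to the gene. For the neighbouring H2-Eb2, looked at beside it after the members' values were seen, the difference was -0.10 ± 0.29 (limma, Benjamini-Hochberg adjusted p = 0.869).

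Cd74, the invariant chain, had 11.98, 11.59 and 10.61 in unsorted lymphoma, against 7.66, 7.69 and 7.65 in DP thymocytes. Lymphoma 3 was the lowest of the tumours here, and was the highest of them for H2-Aa and H2-Ea. The difference was 3.73 ± 0.84 (limma, Benjamini-Hochberg adjusted p = 0.0247; 95% interval 1.81 to 5.65). The call was lost without lymphoma 1 or 2, or without any of the 3 thymocyte arrays, where differences of 3.44 to 3.74 had adjusted p = 0.0620 to 0.0895 by limma. The calls of the 4 classical chains were kept when each array was left out in turn.

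Ciita, the co-activator of the whole set, was near the bottom of the scale: 5.87, 6.02 and 6.47 in unsorted lymphoma, against 5.78, 5.69 and 5.70 in DP thymocytes. On the T cell side, lymphoma 3 was the only array above the filter level of 6.33. The difference was 0.39 ± 0.59 (limma, Benjamini-Hochberg adjusted p = 0.740), with a 95% interval of -0.96 to 1.75. The 2 other Ciita probe sets did not pass the filter. At signals this low a change in Ciita could go unseen.

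H2-DMa, a chain of the peptide exchange factor, had 10.47, 10.02 and 9.66 in unsorted lymphoma, against 8.76, 8.80 and 8.78 in DP thymocytes. The difference was 1.27 ± 0.24 (limma, Benjamini-Hochberg adjusted p = 0.0111; 95% interval 0.73 to 1.81). Its call was lost without any of the 3 thymocyte arrays (differences of 1.26 to 1.28, adjusted p = 0.0523 to 0.0542) and with the mean of both its probe sets (0.73, adjusted p = 0.158), by limma. The other probe set, dimmer, ran between 5.58 and 5.70 in unsorted lymphoma and between 5.39 and 5.54 in DP thymocytes. The beta chain H2-DMb2, which is no member and was looked at because it shares probe sets with H2-DMb1, averaged 8.76 ± 0.48 in unsorted lymphoma and 6.68 ± 0.07 in DP thymocytes (SD, n = 3 each). Its difference was 2.08 ± 0.52 (limma, Benjamini-Hochberg adjusted p = 0.0372).

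H2-Oa, the alpha chain of H2-O, had 9.69, 9.47 and 10.29 in unsorted lymphoma, against 8.99, 8.94 and 8.86 in DP thymocytes, so it was well expressed in normal thymocytes too. The groups did not overlap, and the difference of 0.88 ± 0.35 missed the threshold (limma, Benjamini-Hochberg adjusted p = 0.141; 95% interval 0.09 to 1.67). It passed when the fit held only the arrays of these groups (adjusted p = 0.0274) and with array weights (adjusted p = 0.00973).

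H2-Ob, the beta chain of H2-O, had 6.82, 6.99 and 9.89 in unsorted lymphoma, against 6.34, 6.52 and 6.79 in DP thymocytes. Lymphoma 3 was far above the other tumours: without it the difference was 0.35. With it, the difference of 1.35 ± 1.29 missed the threshold (limma, Benjamini-Hochberg adjusted p = 0.565; 95% interval -1.60 to 4.29). The same array was high for markers of B cells, in which H2-O is known to be made. Ms4a1 was at 10.74 in lymphoma 3, against 6.59 and 6.02 in lymphomas 1 and 2, and Cd79b at 10.93, against 7.23 and 6.52. The 9 measured B cell markers summed to 6030 in lymphoma 3, 901 and 674 in the other unsorted lymphomas, and 804 to 864 in DP thymocytes. The stem cell side differed: LSC 1 had the highest H2-Ob there (9.61) with a B cell sum of 338. HSC 1 had the highest B cell sum there (2880) with H2-Ob at 7.77. The part of B cells in the H2-Ob values was not tested.

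The next comparison set the sorted lymphoma beside DP thymocytes. In the sorted tumour the classical chains and Cd74 were near or below the thymocyte level, and H2-DMa was the only member of 9 that rose, 3.69-fold, against 181 of 12786 genes (1.42%). H2-Aa was at 7.38 in the sorted array, a difference from DP thymocytes of -0.45 with a 95% interval of -2.62 to 1.71. H2-Eb1 was at 6.98, a difference of -0.33 (-2.37 to 1.71), and Cd74 at 7.17, a difference of -0.50 (-3.22 to 2.22). For each of these the unsorted tumours lay above the sorted array. H2-Ab1 was at 7.14, a difference of -1.56 (-3.28 to 0.15), and H2-Ea at 6.92, a difference of -0.996 (-3.33 to 1.33). Neither passed limma's test (Benjamini-Hochberg adjusted p = 0.560 and 0.9998). For all the classical chains and Cd74 the sorted array lay below every thymocyte array. The lowest thymocyte values were 7.74 for H2-Aa, 8.64 for H2-Ab1, 7.74 for H2-Ea, 7.17 for H2-Eb1 and 7.65 for Cd74. The median was -0.45 over the 9 members and -0.01 over all genes tested. The spread of a lone array was taken from the groups with replicates.

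H2-DMa stood at 10.66 in the sorted lymphoma, above each unsorted tumour and each thymocyte array. Its difference from DP thymocytes was 1.88 ± 0.33 (limma, Benjamini-Hochberg adjusted p = 0.0292; 95% interval 1.12 to 2.65). That call was lost without any of the 3 thymocyte arrays (1.87 to 1.89, adjusted p = 0.103 to 0.111) and with the mean of both probe sets (1.36, adjusted p = 0.214), by limma. H2-Oa, at 9.77, was inside the range of the unsorted tumours and 0.84 ± 0.49 above DP thymocytes (limma, Benjamini-Hochberg adjusted p = 0.741). H2-Ob was at 5.30, under every thymocyte array, and Ciita at 5.84.

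**Figure D2:**
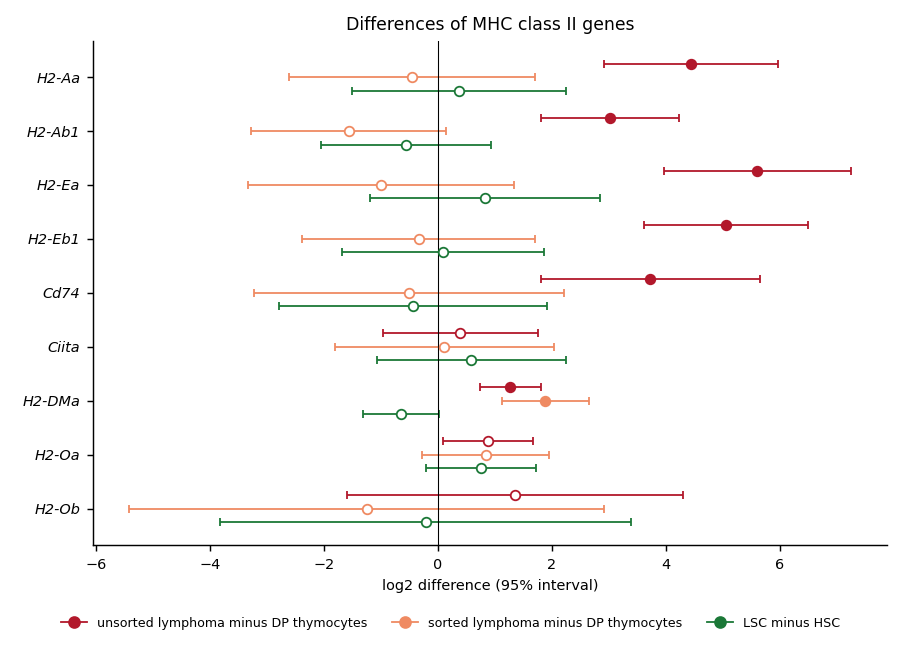
Log2 difference of each measured class II gene with its 95% interval, for unsorted lymphoma minus DP thymocytes, sorted lymphoma minus DP thymocytes, and LSC minus HSC. Filled points passed the test and open points did not; the classical chains and Cd74 passed in unsorted lymphoma, and H2-DMa passed in unsorted and sorted lymphoma.

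Set directly against the unsorted tumours, the sorted array was lower in H2-Ab1, H2-Ea and H2-Eb1, 3 of 9 members, where 76 of 12786 genes were lower (0.594%). H2-Ea was 97.2-fold lower in the sorted tumour, a log2 difference of -6.60 ± 1.02 (limma, Benjamini-Hochberg adjusted p = 0.0337). Its second probe set was 12.8-fold lower (-3.68) and was not called (adjusted p = 0.337 by limma). H2-Eb1 differed by -5.39 ± 0.89 (adjusted p = 0.0430) and H2-Ab1 by -4.59 ± 0.75 (adjusted p = 0.0425) in the same limma fit. H2-Aa, at -4.90 (adjusted p = 0.0832), and Cd74, at -4.23 (adjusted p = 0.245), missed the threshold in that limma fit. H2-DMa differed by 0.61 and H2-Oa by -0.04. What was called also depended on the probe set for H2-Ab1 and H2-Aa. Fitted as rows of their own, the other H2-Ab1 probe sets were not called (-4.48 and -3.71). Of the other H2-Aa probe sets, 1452431_s_at was called lower (-6.01) and 1438858_x_at was not called (-4.88). The median was -4.23 over the members and 0.05 over all genes. All 3 calls were lost without lymphoma 1 (adjusted p = 0.0778 to 0.0986) and without lymphoma 3 (0.0961 to 0.113), while the differences stayed between -4.46 and -6.65, by limma. They were also lost without the filter on low values, with an offset of 32 added to each intensity, and when the fit held only these arrays.

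In ZNF112, 5 members were lower than in unsorted lymphoma, against 192 of 12786 genes (1.5%). By limma, H2-Aa was at 6.71 and differed by -5.57 (adjusted p = 0.0244), H2-Ea at 6.25 by -7.27 (adjusted p = 0.0121), and H2-Eb1 at 6.81 by -5.57 (adjusted p = 0.0196). H2-Ab1 was at 8.01 and differed by -3.71 (adjusted p = 0.0463), and H2-DMa was at 8.42 and differed by -1.63 (adjusted p = 0.0482), in the same limma fit. Cd74, at 7.31, differed by -4.09 (limma, Benjamini-Hochberg adjusted p = 0.15). H2-Oa was at 8.61, H2-Ob at 5.20 and Ciita at 5.90. The median was -3.71 over the members and 0.05 over all genes. Fitted as rows of their own, the other H2-Ab1 probe sets (-3.87 and -3.04) and the other H2-DMa probe set (-0.60) were not called. In that fit the brightest probe sets of H2-Ab1 and H2-DMa were not called either. The H2-Ea call was lost with its second probe set (-3.39, adjusted p = 0.262) and with the mean of its probe sets (-3.44, adjusted p = 0.0516). H2-Ea and H2-Eb1, each by its brightest probe set, kept their calls without any of the unsorted lymphomas; H2-Aa lost its call without lymphoma 1 or 3 (adjusted p = 0.0519 and 0.0568), H2-Ab1 without any of them (0.0820 to 0.105) and H2-DMa without lymphoma 1 or 2 (0.0729 and 0.0866), by limma. The sorted lymphoma and ZNF112 therefore both had low classical chains, and among the members differed most in H2-DMa, at 10.66 in the sorted lymphoma and 8.42 in ZNF112; these are single arrays, and their difference was not tested.

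Ordered by level on the T cell side, the classical chains and Cd74 had the unsorted tumours highest and the other arrays in a group far below. For H2-Aa the sorted lymphoma (7.38) and ZNF112 (6.71) lay just under the thymocytes (mean 7.84 ± 0.15, SD, n = 3). For H2-Ab1 the order below the tumours was thymocytes (8.70 ± 0.06), ZNF112 (8.01) and sorted lymphoma (7.14), and neither neighbouring pair was tested. For H2-DMa the order was sorted lymphoma, unsorted lymphoma (10.05 ± 0.41), thymocytes (8.78 ± 0.02) and ZNF112, of which the first pair did not differ by the test (limma, Benjamini-Hochberg adjusted p = 0.608).

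Markers of other cells moved with the classical chains. Of 10 tested macrophage and monocyte markers, 7 rose in unsorted lymphoma against DP thymocytes, among them Csf1r, the receptor for macrophage growth factor (4.96), Lyz2, lysozyme (5.13), and C1qa, a complement chain (4.55); the list's median was 4.05. The 11 measured macrophage markers summed to 40472, 16669 and 21383 in unsorted lymphoma, 1154 in sorted lymphoma and 1193 in ZNF112, against 1041 to 1123 in DP thymocytes. Among the unsorted tumours, lymphoma 1 was highest and lymphoma 2 lowest in this sum. By the mean log2 of the same markers, lymphomas 1, 2 and 3 were at 10.50, 9.52 and 9.49. H2-Ab1 and H2-Eb1 were also highest in lymphoma 1. Lymphomas 2 and 3 were nearly level in H2-Ab1 (11.58 and 11.61) and H2-Eb1 (12.33 and 12.35). Lymphoma 3 was highest in H2-Aa and H2-Ea and lowest in Cd74. Under the filter level lay 1 of the 11 in each unsorted tumour, 5 in sorted lymphoma, 5 in ZNF112 and 5 to 6 in DP thymocytes. Their part in the class II values was not tested.

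Of 9 tested markers of stroma, endothelium and thymic epithelium, 6 rose in unsorted lymphoma, with Dcn, decorin of fibroblasts, up by 7.71. Those 11 measured markers summed to 34564, 15822 and 21918 in unsorted lymphoma, 5002 in sorted lymphoma and 3273 in ZNF112, against 917 to 942 in DP thymocytes. Epcam, an epithelial adhesion gene, was high in the sorted array too, at 12.07 in sorted lymphoma against 10.25 to 12.42 in the unsorted tumours. Of 8 tested dendritic cell markers and 7 tested B cell markers, 0 passed the test by limma (4 and 2 had an unadjusted p under 0.05), with medians of 1.23 and 0.92. The 10 measured dendritic cell markers summed to 3653, 2954 and 1571 in unsorted lymphoma, 4457 in sorted lymphoma and 856 in ZNF112, against 800 to 859 in DP thymocytes. Members of this list differed in the sorted array: Itgax, an integrin, was at 5.69 there and at 8.29, 8.0 and 7.30 in unsorted lymphoma, whereas Ccr7, a chemokine receptor that T cells also carry, was at 11.89 there and at 10.28, 9.13 and 8.83 in unsorted lymphoma. In DP thymocytes Itgax was at 5.87 to 6.19 and Ccr7 at 6.75 to 7.03. Among 8 T cell markers, Cd4 fell by 3.11 and the list's median was -1.0.

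**Figure D3:**
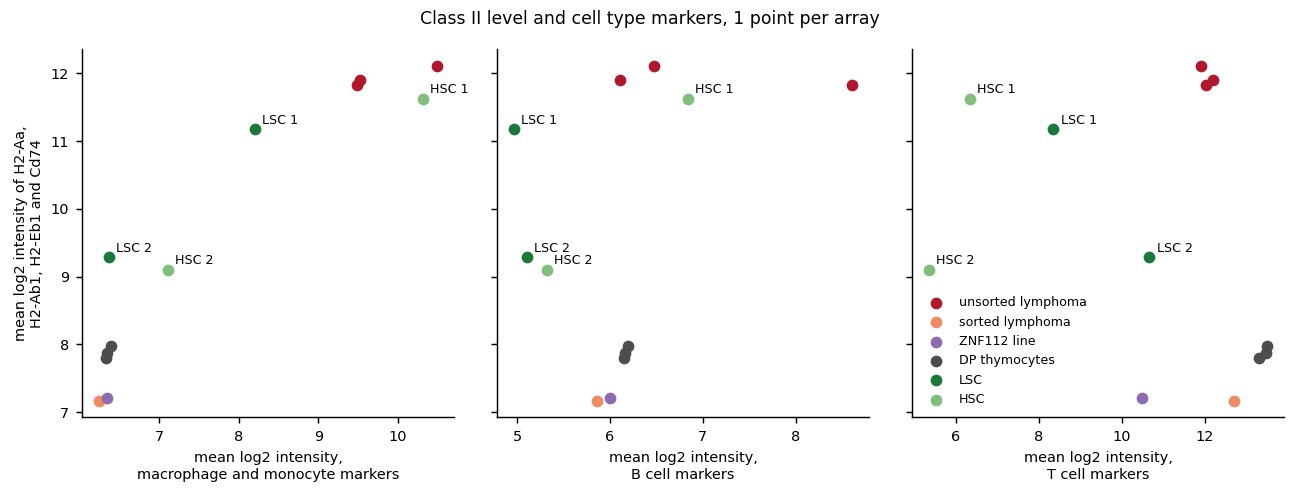
Mean log2 intensity of macrophage, B cell and T cell marker lists on every array, against the mean log2 intensity of H2-Aa, H2-Ab1, H2-Eb1 and Cd74. On the T cell side the macrophage mean was high in the 3 unsorted lymphomas and the B cell mean was highest in lymphoma 3. On the stem cell side both means were highest in HSC 1.

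Genes that feed the class II pathway were examined as fixed lists. Of 8 lysosomal processing genes, 4 rose in unsorted lymphoma against DP thymocytes and 1 fell, beside 6.84% higher and 5.45% lower among all genes tested. Ctss, the protease that makes the last cut in the invariant chain in most presenting cells, rose by 5.29 ± 0.65, Lgmn, an asparaginyl endopeptidase, by 4.8, Ctsh by 4.31 and Ifi30, a thiol reductase for antigens, by 4.24. Ctsl, the protease that does the work of Ctss in cortical thymic epithelium, fell by 1.5. The list's median was 2.84 against -0.03 over all genes. In the sorted tumour 0 of 8 passed by limma and 1 had an unadjusted p under 0.05. The median there was 0.05, and Ctss, at 11.27, was nevertheless above the thymocytes' 8.09, 8.38 and 8.19, by 3.05 ± 0.92 (limma, Benjamini-Hochberg adjusted p = 0.180).

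Among 15 tested genes of class II transcription, 1 rose and 1 fell, with a median of -0.40. Irf1, an interferon-induced activator of the Ciita gene, rose by 2.01 ± 0.39 and was as high in the sorted tumour (13.39) and ZNF112 (13.55) as in the unsorted tumours (12.78 to 13.31), against 11.04 to 11.16 in DP thymocytes. Rfxap, a subunit of the RFX complex, fell by 1.40. Rfx5 and Rfxank, the other subunits, had differences of -0.25 and -0.89, and Nfya, of NF-Y, -1.23, none of which passed. Irf4 was at 11.33 in the sorted tumour, against 8.02 to 9.02 in the unsorted tumours.

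In the list of class II turnover and costimulation, Cd86, a ligand of CD28, rose by 2.90 ± 0.66, 1 of 8. Cd83 (2.27) and Marchf1 (2.19), which keep and remove surface class II, missed the threshold (adjusted p = 0.136 and 0.156 by limma). The median was 2.07 in unsorted lymphoma and 0.01 in the sorted tumour. Among 4 partners of class II on T cells, Cd4, its co-receptor, fell to 9.61, 10.75 and 9.88 in unsorted lymphoma, against 13.26, 13.30 and 13.02 in DP thymocytes. Cd28 had a difference of -3.13 (limma, Benjamini-Hochberg adjusted p = 0.0551) and was at 13.40 in the sorted tumour. Among 9 tested neighbours in the class II region of chromosome 17, Psmb9, an immunoproteasome subunit, rose by 2.34 ± 0.31 and the median was 0.37. Psmb9 was at 12.47 in the sorted tumour, against 12.62 to 12.99 in the unsorted tumours, so it stayed near its tumour level in the array in which the classical chains were low.

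**Figure D4:**
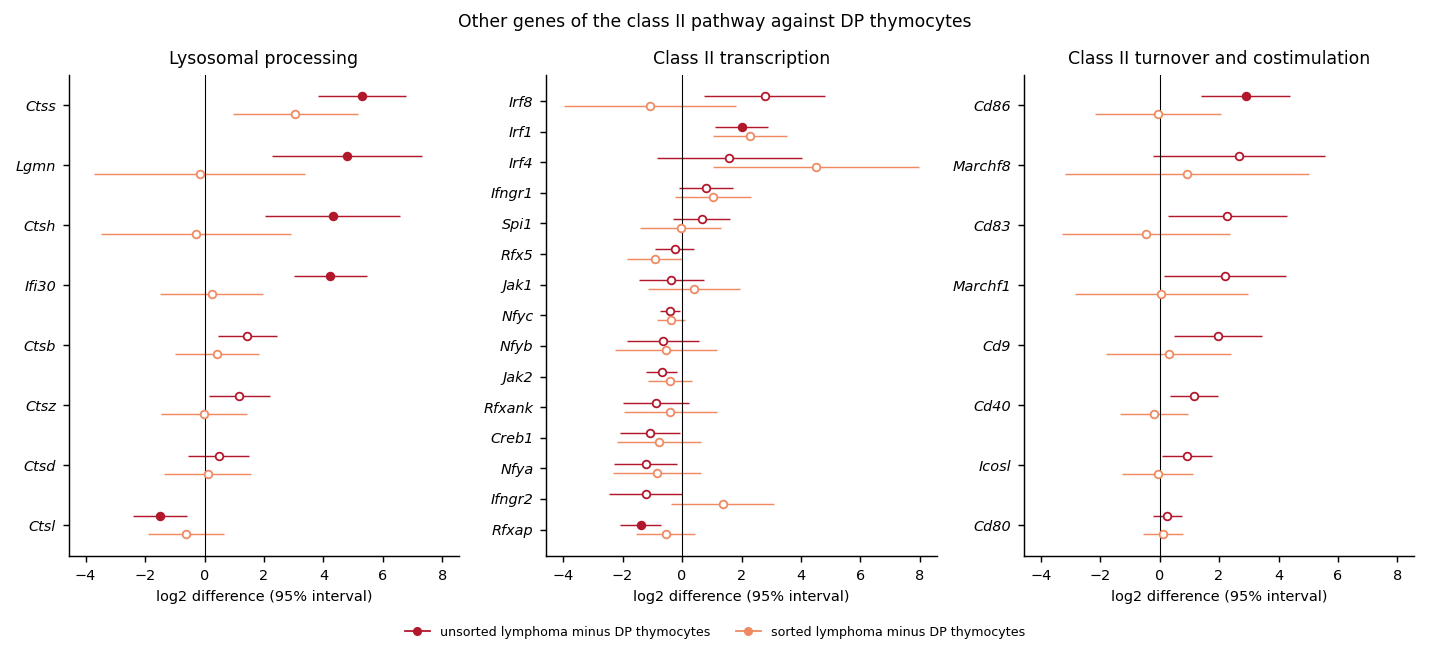
Log2 difference with 95% interval for genes of lysosomal processing, class II transcription, and turnover and costimulation, in unsorted and in sorted lymphoma, each minus DP thymocytes. Filled points passed the test. In unsorted lymphoma Ctss, Lgmn, Ctsh, Ifi30, Irf1 and Cd86 passed as higher, and Ctsl and Rfxap as lower. No gene passed in the sorted lymphoma.

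LSC were compared with HSC to see whether cells of the same surface phenotype differ between diseased and normal mice. No difference in class II was called: 0 of 9 members passed, 0 had an unadjusted p under 0.05 by limma, and 1407 of 12786 genes were called in either direction (11%). Both groups held a high and a low array. The mean of H2-Aa, H2-Ab1, H2-Eb1 and Cd74 was 11.18 and 9.29 in LSC, against 11.63 and 9.10 in HSC. H2-Aa had 11.49 and 9.63 in LSC, against 11.47 and 8.91 in HSC, a difference of 0.37 with a 95% interval of -1.51 to 2.24. H2-Eb1 had 11.72 and 9.76 in LSC, against 11.82 and 9.48 in HSC (0.09, interval -1.68 to 1.86). The array of each group that was high in class II was also the one with the higher macrophage sum given above. C1qa was at 11.35 in HSC 1 and 6.54 in HSC 2, and at 6.23 in LSC 1 and 5.41 in LSC 2. Of this list Lyz2 (8.92 and 9.64), Cd14 (6.91 and 7.76) and Itgam (4.74 and 4.85) were lower in LSC 1 than in LSC 2. The other measured markers of the list were higher in LSC 1. The part of macrophages in these values was not tested.

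H2-Ea had 14.47 and 11.51 in LSC, against 13.05 and 11.28 in HSC (0.82, interval -1.20 to 2.84). H2-Ab1 had 10.78 and 9.47 in LSC, against 11.75 and 9.61 in HSC (-0.56, interval -2.04 to 0.93). Cd74 had 10.71 and 8.30 in LSC, against 11.46 and 8.41 in HSC. In all of these the groups overlapped.

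H2-DMa had 9.61 and 9.16 in LSC, against 10.12 and 9.94 in HSC. The difference of -0.64 ± 0.29 missed the threshold (limma, Benjamini-Hochberg adjusted p = 0.198), and its other probe set had a difference of 0.23. H2-Oa had 7.83 and 9.14 in LSC, against 7.64 and 7.80 in HSC (0.76 ± 0.42, adjusted p = 0.296 by limma). Ciita had 7.28 and 4.90 in LSC, against 6.25 and 4.75 in HSC. H2-Ob had 9.61 and 4.37 in LSC, against 7.77 and 6.63 in HSC, the widest spread of any member within a group. Single arrays decided what passed. Without LSC 2, H2-Ea (2.30, adjusted p = 0.0308) and Ciita (1.78, adjusted p = 0.0443) passed, and without LSC 1, H2-Oa did (1.42, adjusted p = 0.0188), by limma with 1 LSC array left.

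T cell genes also differed between these groups. Of 8 T cell markers, 7 were higher in LSC than in HSC, against 546 of 12786 genes (4.27%). The list's median was 4.31, and Cd28, of another list, was higher by 4.10. LSC 2 was the array with more T cell signal, and Thy1 was at 8.67 and 12.51 in LSC, against 6.64 and 5.54 in HSC. Among the lysosomal, transcription, turnover and neighbour lists, 0 genes passed between LSC and HSC by limma, and 0, 4, 1 and 1 of them had an unadjusted p under 0.05.

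The contrast of LSC with HSC was then set against that of unsorted lymphoma with DP thymocytes in the same fit. A called difference of contrasts below 0 was found for 5 of 9 members, against 970 of 12786 genes (7.59%). It means a lower contrast for LSC with HSC than for lymphoma with thymocytes, and not lower levels in LSC. For H2-Eb1, LSC minus HSC was 0.09 and unsorted lymphoma minus DP thymocytes was 5.06. H2-Eb1 had a difference of contrasts of -4.97 ± 1.00 and H2-DMa of -1.92 ± 0.37 (limma, Benjamini-Hochberg adjusted p = 0.0166 and 0.0150), and both kept their calls when each array was left out in turn. The H2-DMa call was lost with the mean of its probe sets (-0.94, adjusted p = 0.247) and with array weights (-1.95, adjusted p = 0.0688). H2-Ea, at -4.78, was not called by its second probe set (-2.80, adjusted p = 0.226). H2-Aa, H2-Ab1 and H2-Ea kept theirs in 2, 5 and 4 of the 10 fits with an array left out. Cd74, at -4.16, missed the threshold (limma, Benjamini-Hochberg adjusted p = 0.0778).

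Over the 8 arrays of the T cell side, the genes whose levels most resembled the mean of H2-Aa, H2-Ab1, H2-Eb1 and Cd74 were Cd93 (Pearson r = 0.997), Cald1 (0.996), Vcam1 (0.994), C1qa (0.994), 2810025M15Rik, Plbd1, Lama4, Aqp1, Arsb and Acta2 (0.992). Because 3 arrays are high and 5 are low in this mean, r mostly measures that split and is given as a description. Vcam1, an adhesion molecule of endothelium and macrophages, was at 13.21, 11.62 and 11.87 in unsorted lymphoma, 4.72 in sorted lymphoma and 4.57 in ZNF112, against 5.63 to 6.03 in DP thymocytes. Acta2, smooth muscle actin, was at 10.56, 10.50 and 9.80 in unsorted lymphoma, 7.07 in sorted lymphoma and 7.16 in ZNF112, against 7.55 to 7.61 in DP thymocytes. Among the members, r with the mean was 0.994 for H2-Ea, which is not part of it, and 0.692 for H2-Ob, 0.670 for H2-Oa, 0.639 for Ciita and 0.530 for H2-DMa.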

How the data were processed

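Each of the 12 samples was hybridised to an Affymetrix Mouse430 2.0 array after RNA amplification, per the labels' protocols. The authors deposited linear intensity values per probe set, made with RMA per the submitters' processing notes; its version is not given in the sources used here. Here log2 was taken of each deposited intensity. Of 45101 probe sets, 64 were controls; 34945 had 1 gene symbol, 932 several and 9160 none, and only the first kind was tested.

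Two-sided moderated tests were run by limma 3.58.1 (R 4.3.3; functions lmFit, eBayes) with all 12 arrays in 6 groups that share a spread. Each gene had 1 probe set, the one with the highest mean, and 12786 genes above the median of all values (log2 6.33, an intensity of 80.4) in at least 2 arrays were tested. A Benjamini-Hochberg adjusted p under 0.05 was a call, and the code was tested on simulated data. The labels call the replicates biological. The number of arrays limits the precision, and the arrays hold no read depth.

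The members and the gene lists were chosen with earlier results of these data known. Named genes are the members and called genes of the lists with up to 4 others, though not every called gene of the lists is named. Also named are the 10 genes outside the members with the highest Pearson correlation with the mean of 4 members. Replicate numbers did not pair the samples: deviations of same-numbered lymphoma and thymocyte arrays correlated at -0.02 to 0.01, and those of LSC 1 and HSC 1 at 0.0983, where only the first number could be checked because each group has 2 arrays. The alternatives were other normalizations, offsets, filters, probe sets, sets of arrays, spread estimates, the replicate number as a block and each array left out. The fit of every named probe set as a row of its own was added after the data were seen.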

Additional observations from a re-analysis of the deposited data

Results flagged for a closer look

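The contrast of LSC minus HSC differed from that of unsorted T lymphoma minus DP thymocytes for 5 members, tested as a difference of contrasts by limma over all genes. H2-Eb1 differed by -4.97, H2-Ea by -4.78, H2-Aa by -4.08, H2-Ab1 by -3.58 and H2-DMa by -1.92. Several of these calls were lost in other settings: H2-Ea with its second probe set (-2.80, adjusted p = 0.226), H2-DMa with the mean of its probe sets (-0.94, adjusted p = 0.247), H2-Aa with the mean of its probe sets (-2.76, adjusted p = 0.106), and H2-DMa, H2-Aa and H2-Ab1 with array weights (adjusted p = 0.0688, 0.0761 and 0.05004), by limma. With the sorted tumour pooled, H2-Eb1 was not called either (-3.62, adjusted p = 0.332). For the classical chains the lymphoma contrast was large and that of the stem cells small. For H2-DMa the lymphoma contrast was 1.27 and that of LSC with HSC was -0.64, which was not called. By its other probe set they were 0.195 and 0.23, and neither was called. The sides of the array set differed in median intensity, and each contrast stays within a side. The macrophage sum was higher in every unsorted lymphoma than in DP thymocytes, it was 7043 and 1801 in LSC against 22755 and 3197 in HSC, which overlap, and its part in these differences was not tested.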

How the results depend on the processing

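Between unsorted lymphoma and DP thymocytes, where 6 members were called, pooling the sorted tumour left 1 and the fits with an array left out called 4 to 6. Between the sorted tumour and DP thymocytes (1 call, higher) there were 0 with the mean of a gene's probe sets. There were also 0 in each fit with an array left out. With only the arrays of the contrast, where the spread came from the thymocyte arrays alone, there were 6. Of these, 2 were higher and 4 lower (H2-Ab1, H2-Ea, Cd74 and H2-Ob). With array weights there were 3, of which 2 were higher and 1, H2-Ab1, was lower. Between sorted and unsorted tumours (3 calls) there were 0 with an offset of 32, without the filter, with the mean of probe sets or with only the arrays of the contrast, 1 with the filter at 4 arrays, 1 without _x_at and _s_at probe sets, 5 with array weights and 0 to 3 with an array left out. For ZNF112 (5 calls) there were 1 with the mean of probe sets, 1 without _x_at and _s_at probe sets, 0 with only the arrays of the contrast, 0 with the tumours pooled and 2 to 3 with an array left out. Between LSC and HSC (0 calls) there were 0 to 2 with an array left out. The difference of the contrasts (5 calls) had 2 with the mean of probe sets, 3 without _x_at and _s_at probe sets, 1 with the tumours pooled, 2 with array weights and 2 to 6 with an array left out. With the replicate block the counts were 6 for unsorted lymphoma, 0 for LSC and 5 for the difference of contrasts, so the block changed no count.

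Directions turned only for members that were not called, apart from H2-DMa. H2-Oa in sorted against unsorted tumours turned to 0.0628 with each array centred on its median, which moved the median of all genes by 0.107, and to 0.0126 with array weights, and ran from -0.22 to 0.19 with an array left out. Between LSC and HSC, H2-Aa was -0.27 by another probe set, H2-Eb1 -0.0697 with quantile normalization, H2-DMa 0.23 by its other probe set and H2-Ob 0.19 with the offset. With an array left out, that contrast ran from -0.91 to 1.65 for H2-Aa, -1.63 to 0.51 for H2-Ab1, -0.66 to 2.30 for H2-Ea, -1.08 to 1.26 for H2-Eb1, -1.96 to 1.10 for Cd74, -0.60 to 1.78 for Ciita and -2.83 to 2.41 for H2-Ob. The difference of contrasts ran from -0.999 to 1.39 for Ciita, -0.78 to 0.54 for H2-Oa and -4.18 to 1.06 for H2-Ob, and was 0.0328 for H2-DMa by its other probe set. Among all genes called between sorted and unsorted tumours, 9.52% were higher, against 35.2% with array weights and 21.4% without lymphoma 2; for ZNF112 it was 33.8%, against 44.4% with the mean of probe sets and 46.9% with the tumours pooled. The cause of these shifts was not tested. Low signal limits Ciita and H2-Ob, and 1 array each limits the sorted tumour and ZNF112.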
